A study of Mus musculus with 62 samples.

Results

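The tubulin genes described here are 4 alpha tubulins (*Tuba1a*, *Tuba1b*, *Tuba1c* and *Tuba4a*) and 6 beta tubulins (*Tubb2a*, *Tubb2b*, *Tubb3*, *Tubb4b*, *Tubb5* and *Tubb6*), 10 of the 48795 genes in the count table. They were listed by name and selected on the higher *Tuba1a* and *Tuba1b* counts of KO than of WT adipose tissue, a difference known when the list was drawn up and given below as a description from which nothing is read. The study asked what loss of *Fam13a* does to adipose tissue and liver of mice, by RNA sequencing of 62 bulk tissue samples. WT mice and mice with a whole-body KO, made from a conditional-ready allele with a floxed exon of *Fam13a* on a C57BL6 background, were compared. Visceral adipose tissue (VAT, the gonadal fat pad), subcutaneous adipose tissue (SAT, the inguinal pad) and liver came from males on chow or on a high-fat diet (HFD), with 4 WT and 4 KO samples for each tissue and diet. VAT and SAT also came from females on HFD, with 3 WT and 4 KO samples for each depot. All cells of a KO animal carry the deletion, and the labels do not say which tissues came from the same mouse. A bulk sample holds every cell type of the dissected pad, so that fewer cells of a type and less RNA per cell cannot be told apart.

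Microtubules are hollow polymers of alpha and beta tubulin heterodimers, and they carry the mitotic spindle, vesicle transport and the positioning of organelles. Mammals encode each subunit in several genes, the isotypes, which share a nearly identical globular body and differ mainly in the short acidic tail at the C terminus, where most of the modifying enzymes act. Tubulin mRNA is also under autoregulation, in which an excess of free dimer leads to decay of translating tubulin mRNA through *Ttc5*. *Tuba1a* is best known from developing neurons, *Tubb3* is the classical neuronal beta tubulin, *Tubb5* and *Tubb4b* are widely expressed, and an enlarging adipocyte is known to rebuild its microtubules together with its actin cortex.

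The ends of the coding sequences are shown because they hold the stretch in which the isotypes differ most and because the alpha tubulin that led in liver, *Tuba4a*, lacks a feature that *Tuba1c* has. Each line gives the last 45 bases of the coding sequence, stop codon included, of the reference transcript in GENCODE M21 (GRCm38), and capitals mark a tyrosine codon directly before the stop codon.
Tuba1c: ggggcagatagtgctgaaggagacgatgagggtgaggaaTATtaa
Tuba4a: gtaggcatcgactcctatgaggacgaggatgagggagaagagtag
Tubb2a: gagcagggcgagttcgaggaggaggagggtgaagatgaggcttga
Tubb4b: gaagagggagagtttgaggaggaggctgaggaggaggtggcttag
Tubb5: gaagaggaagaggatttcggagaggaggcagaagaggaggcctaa
*Tuba1c* encodes the C-terminal tyrosine that is removed and put back in the tubulin tyrosination cycle. *Tuba4a* ends without that codon, and its product is known to resemble detyrosinated tubulin from the start. Over the whole coding sequence *Tuba1a* was 98.3% identical to *Tuba1b* and 97.1% to *Tuba1c*, whereas *Tuba4a* shared 84.7% with *Tuba1a*. Among the 6 beta tubulins, identity of pairs ranged from 80.2% to 96.5%, the latter between *Tubb2a* and *Tubb2b*.

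*Tuba1a* (ENSMUSG00000072235.5, chr15:98949837-98953703 on the minus strand), *Tuba1b* (ENSMUSG00000023004.8, chr15:98931425-98934565 on the minus strand) and *Tuba1c* (ENSMUSG00000043091.8, chr15:99029891-99038110 on the plus strand) lie near each other on GRCm38. *Tuba4a* (ENSMUSG00000026202.13, chr1:75214228-75219865 on the minus strand), *Tubb3* (ENSMUSG00000062380.4, chr8:123411424-123422015 on the plus strand), *Tubb4b* (ENSMUSG00000036752.4, chr2:25222160-25224702 on the minus strand) and *Tubb5* (ENSMUSG00000001525.10, chr17:35833921-35838306 on the minus strand) lie apart from them, and *Tubb2a* (ENSMUSG00000058672.6, chr13:34074274-34078007 on the minus strand) and *Tubb2b* (ENSMUSG00000045136.5, chr13:34126748-34130466 on the minus strand) lie near each other on another chromosome. Reads that fit 2 copies equally well are usually not counted, and the share of 100-base windows of the exons that also occurs in another annotated gene was 50% for *Tuba1a*, 61.7% for *Tuba1b*, 46% for *Tuba1c*, 36.9% for *Tubb2a*, 26.0% for *Tubb2b* and 22.0% for *Tubb4b*. For *Tuba4a* it was 32.4%, through a gene on the opposite strand, *Stk16*, and for *Tubb3*, *Tubb5* and *Tubb6* it was 0. Levels of the 7 genes with shared windows are therefore uncertain, and may be understated, whereas the same gene can be compared between samples. The shares leave out *Gm49450*, an annotated gene on the minus strand that overlaps both *Tuba1a* and *Tuba1b*. Its bearing on their counts was not tested.

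Counts on genes ranged from 4959783 to 28723319 per library (median 21694089), and one ribosomal RNA gene took 0.0127% to 75.4% of them (median 1.06%). The mean *Fam13a* level was lower in KO than in WT in each of the 8 pairs of groups, with the smallest ratio of WT to KO in male HFD VAT, at 16.5 against 19.4 CPM. CPM are counts scaled to the library total after scaling of the libraries for composition. The KO samples did not overlap the WT samples in male chow SAT (80.7 to 185 against 234 to 282 CPM), male HFD SAT (26.1 to 44.1 against 54.5 to 70.8) and male HFD liver (16.2 to 31.9 against 36.0 to 46.8), and overlapped in the other 5 pairs. The count covers the whole gene and not the deleted exon alone. Fat libraries held adipocyte genes and liver libraries hepatocyte genes: the summed level of 6 adipocyte markers was 1465 to 5522 RPKM in male fat against 9.36 to 51.4 in liver, and that of 6 hepatocyte markers 29263 to 54347 in liver against 9.99 to 1626 in fat. Some fat libraries also held genes of another tissue. These were genes of lymphocytes in 7 SAT libraries, of testis or epididymis in 4 male VAT libraries and of skeletal muscle in 2 SAT libraries. Their values are given with the main results they touch. Summed mammary and skin epithelium markers were 64.5 to 156 RPKM in the 7 female SAT libraries and 0.0558 to 4.23 in male HFD SAT. Diets were sequenced on different lanes, so that diet and lane cannot be told apart, and neither can tissue and lane on chow.

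Which tubulins a tissue used differed between fat and liver. Levels are given in RPKM, counts per kilobase of exon, divided by the library's depth after scaling of the libraries for composition (TMM), which is the only scale used here to set genes side by side. In WT male SAT on chow, *Tubb5* led with a level of 39.1 ± 7.98 RPKM (SD, n = 4), above *Tuba1a* (17.7 ± 5.89) and *Tubb4b* (17.0 ± 1.80), whose samples overlapped. On HFD *Tuba1a* led SAT at 145 ± 34.0 RPKM with no overlap with the next, *Tubb5* (32.2 ± 2.85), which in turn overlapped *Tuba1b* (26.2 ± 4.68). The same 3 genes, *Tuba1a*, *Tubb5* and *Tubb4b*, held the first 3 places in WT VAT on both diets, and their samples overlapped there, with *Tuba1a* at 40.5 ± 11.1 RPKM on chow and 91.2 ± 43.2 on HFD. The place of *Tubb4b* on HFD (41.1 ± 41.3) rested on WT replicate 4, a library with testis genes: without it *Tubb4b* was at 20.4 ± 3.18 RPKM (n = 3), below *Tubb2a* (29 ± 10.7).

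Liver was led by other isotypes. In WT liver on chow, *Tubb4b* (30.6 ± 7.37 RPKM), *Tubb2a* (27.7 ± 1.84) and *Tuba4a* (23.1 ± 0.704) came first, and *Tubb4b* and *Tubb2a* overlapped. *Tuba1a* stood at 1.14 ± 0.265 RPKM and overlapped *Tuba1b* (1.60 ± 0.559) and *Tubb6* (1.09 ± 0.294). The neuronal *Tubb3*, and *Tubb2b*, had no count in any WT liver on chow. They held the last 2 places in WT fat as well: *Tubb3* had fewer than 10 counts in 53 of the 62 libraries and *Tubb2b* in 18. When only the unshared part of each gene was used for the length, *Tuba1b* moved up in fat, *Tubb2a* came first in liver on chow, and *Tubb5* and *Tuba1a* of chow SAT were about level, at 38.0 and 37.4.

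**Figure D1:**
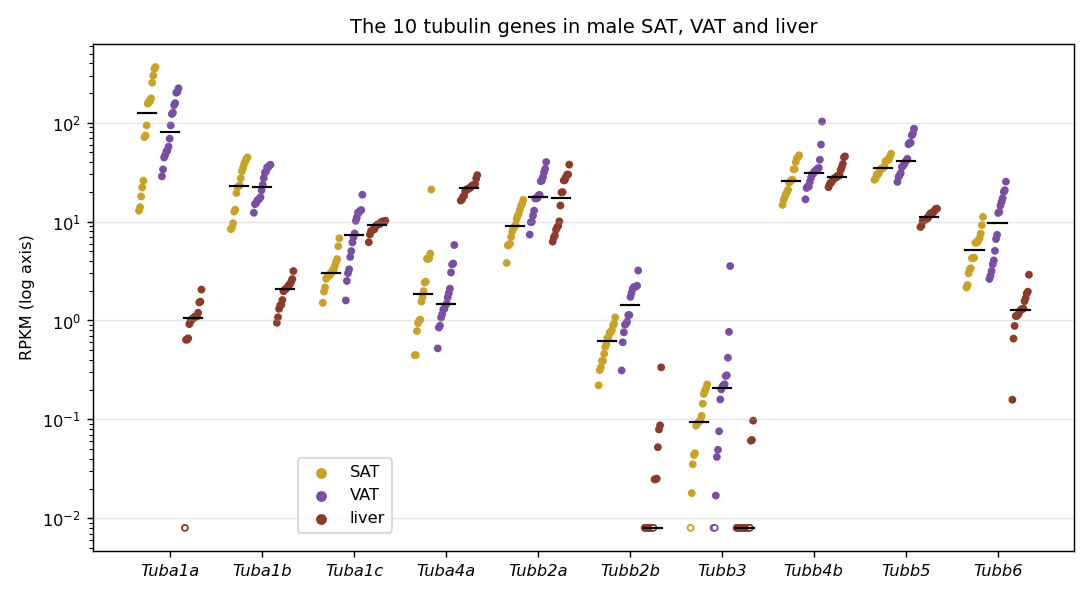
Level of each of the 10 tubulin genes in every male library of SAT, VAT and liver, in RPKM on a log axis, with points for libraries, black lines for medians and open points at the bottom for libraries without a count. *Tuba1a*, *Tuba1b* and *Tubb5* show no overlap between fat and liver, and for *Tuba4a* every liver library lies above 31 of the 32 fat libraries.

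Across the 48 male libraries, edgeR's quasi-likelihood test between liver and fat with diet and genotype as covariates called 9 of the 10 tubulins at an FDR of 10%, 6 lower and 3 higher in liver, where 85.3% of all 19424 tested genes were called, 37.4% higher and 47.9% lower, and the median log2 difference of all genes was -0.20. *Tuba1a* ranged from 0 to 2.05 (median 1.05) RPKM in liver and from 12.9 to 366 (median 94.0) in fat, with no overlap, and its log2 difference was -6.28 ± 0.36 (SE, adjusted p = 5.25e-21 by edgeR). *Tuba1b* and *Tubb5* did not overlap either and were lower in liver, with log2 differences of -3.42 ± 0.18 and -1.76 ± 0.12. *Tubb2b*, *Tubb3* and *Tubb6* were lower too, with log2 differences of -5.15, -3.35 and -2.33 and overlapping samples.

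*Tuba4a*, the isotype without the terminal tyrosine codon, ran the other way. It ranged from 16.3 to 29.5 (median 21.6) RPKM in liver and from 0.446 to 21.1 (median 1.63) in fat, a log2 difference of 3.32 ± 0.27 (adjusted p = 1.08e-15, edgeR). The 1 fat library inside the liver range was KO replicate 1 of male chow SAT with 21.1 RPKM, whose 5 skeletal muscle markers summed to 5176 RPKM, and the next highest male fat value was 5.79. *Tuba1c* (0.99) and *Tubb2a* (0.49) were also called higher in liver, but without composition scaling their log2 differences were -0.13 and -0.61, and that of *Tubb2a* was -0.98 in HFD libraries and -0.18 against VAT alone. *Tubb4b* differed by 0.04 ± 0.16. Its direction too depended on scaling, at -1.07 without it.

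Summed by class, the alpha tubulins of WT liver were 65.6% *Tuba4a* and 3.24% *Tuba1a* on chow, as mean shares of the summed alpha RPKM. In WT fat the share of *Tuba1a* was 51.1 ± 6.98% (SD, n = 4) in chow SAT, 82.1 ± 3.00% in HFD SAT, 63.2 ± 3.35% in chow VAT and 71.6 ± 4.07% in HFD VAT. In KO fat it was 67.0 ± 12.4%, 87.1 ± 1.25%, 71.9 ± 7.21% and 79.3 ± 3.09% in the same order. The summed alpha level came mostly from 1 gene in fat, and from another in liver. Because subunits pair, the beta sum is given beside it: in chow SAT the mean alpha sum was 34.1 RPKM in WT and 119 in KO, and the beta sum 66.1 and 77.7. In HFD SAT the alpha sums were 175 and 364 RPKM and the beta sums 73.6 and 104. These sums cover only the 10 genes, and the shared windows of *Tuba1a*, *Tuba1b* and *Tuba1c* bear on them.

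**Figure D2:**
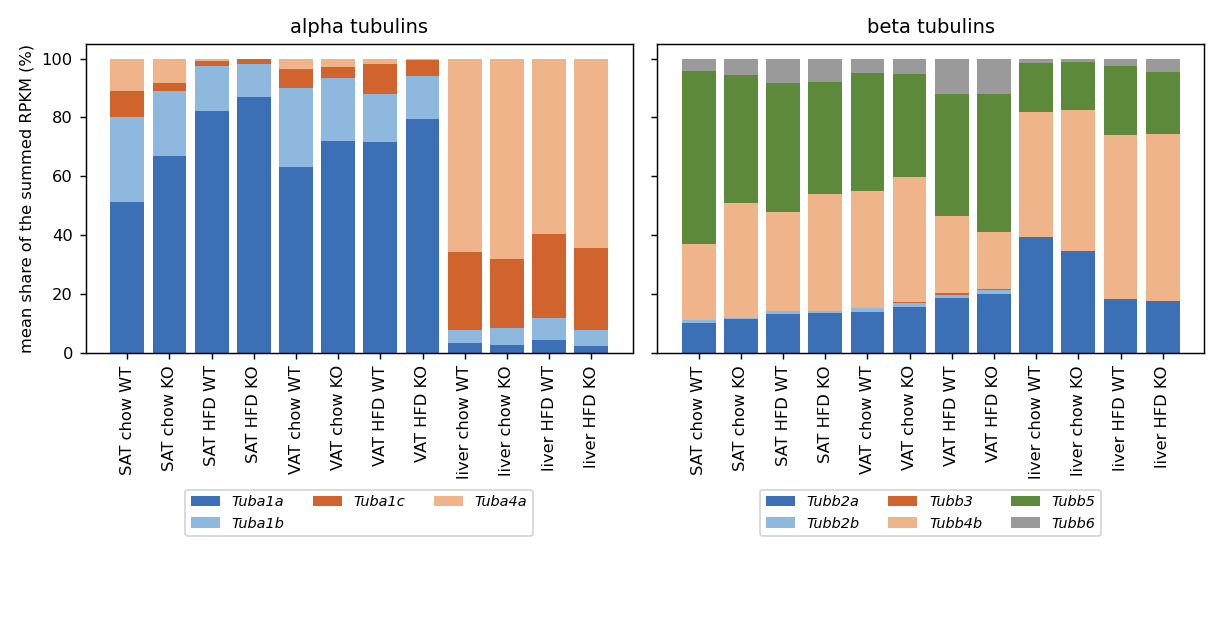
Mean share of each isotype in the summed RPKM of the alpha tubulins (left) and of the beta tubulins (right), in percent, for the 12 male groups of tissue, diet and genotype with 4 libraries each. *Tuba1a* takes most of the alpha sum in fat and *Tuba4a* most of it in liver.

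*Tuba1a* and *Tuba1b* were the members whose difference between KO and WT fat chose the list. In male SAT on chow the *Tuba1a* level was 14, 25.9, 12.9 and 18 RPKM in the 4 WT samples and 71.4, 176, 74.2 and 22.1 RPKM in the 4 KO samples. The means were 17.7 ± 5.89 and 86.0 ± 64.8 RPKM (SD, n = 4), a 4.86-fold ratio, and KO replicate 4 at 22.1 RPKM lay within the WT range. On HFD it was 94.0, 165, 163 and 156 in WT and 351, 254, 366 and 299.7 in KO SAT, with means of 145 ± 34.0 and 317 ± 50.9 and a ratio of 2.20. All 4 KO samples were above all 4 WT samples there, and WT replicate 1 was the low one.

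In male VAT on chow, *Tuba1a* was 33.7, 52.2, 28.7 and 47.2 RPKM in WT and 57.2, 126, 158 and 44.5 in KO. KO replicate 4, with a testis marker sum of 966 RPKM, was the lowest KO sample and fell within the WT range. The next lowest, KO replicate 1, had an epididymis marker sum of 9748 RPKM, and the highest WT sample, replicate 2, also held epididymis genes. The ratio of the means was 2.38. On HFD it was 51.4, 150.4, 93.9 and 69.0 RPKM in WT and 223, 201, 123 and 205 in KO VAT (ratio 2.06), and KO replicate 3 fell below the highest WT sample. In females on HFD, *Tuba1a* was 56.9, 72.5 and 96.2 RPKM in WT and 146, 59.1, 125 and 207 in KO SAT, where KO replicate 2 stood among the WT samples, and the ratio of means was 1.79. In female VAT it was 78.0, 70.9 and 112 in WT and 132, 133, 156 and 145 in KO, with a ratio of 1.63 and no overlap. The KO mean was thus higher in 6 of 6 fat groups, by 1.63- to 4.86-fold, and samples did not overlap in 2 of the 6.

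**Figure D3:**
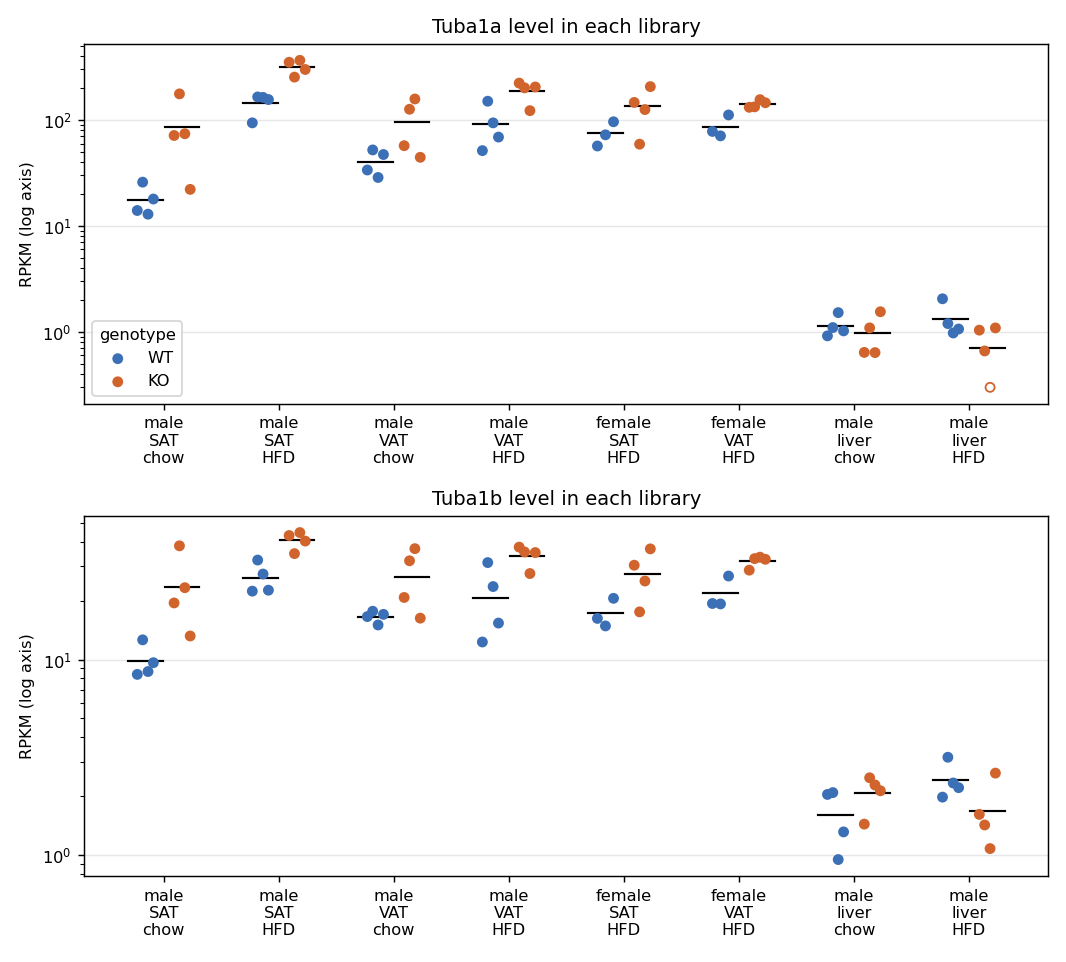
*Tuba1a* and *Tuba1b* in each library, in RPKM on a log axis, for the 8 groups of sex, diet and tissue, with WT in blue, KO in orange and black lines at the group means (3 or 4 libraries each); the open point at the bottom is a liver library without a *Tuba1a* count. KO means lie above WT means in the 6 fat groups.

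*Tuba1b*, the gene next to *Tuba1a* and its near copy, had the same direction at a lower level. In male SAT it was 8.39, 12.6, 8.68 and 9.63 RPKM in WT and 19.5, 38.2, 23.3 and 13.2 in KO on chow, and 22.4, 32.3, 27.4 and 22.6 in WT and 43.1, 34.8, 44.6 and 40.4 in KO on HFD. The KO samples were all above the WT samples in both. The ratios of the means were 2.39 and 1.56. In male VAT it was 16.6, 17.7, 15.0 and 17.0 RPKM in WT and 20.8, 32, 36.9 and 16.3 in KO on chow (ratio 1.60), and 12.3, 31.3, 23.6 and 15.4 in WT and 37.6, 35.5, 27.5 and 35.3 in KO on HFD (ratio 1.65). KO replicate 4 on chow and KO replicate 3 on HFD overlapped WT. In female SAT it was 17.5 to 36.8 in KO and 14.9 to 20.6 in WT, and the groups overlapped. In female VAT it was 28.7 to 33.4 in KO and 19.3 to 26.7 in WT, without overlap.

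The fit over 32 male fat libraries with diet and depot as covariates gave log2 differences of 1.37 ± 0.26 for *Tuba1a* and 0.80 ± 0.15 for *Tuba1b* (SE), and these 2 of the 10 were the ones past the FDR of 10%, where 3.97% of 18561 genes were called, 2.62% higher and 1.34% lower. The rule used this contrast, so that nothing is read from the count. Without the libraries rich in lymphocyte genes, described below, the log2 differences were 1.13 and 0.69, and 0 of the 10 were past the FDR, where 0.0106% of all genes (2) were. They were 1.69 and 0.93 in SAT alone and 1.16 and 0.70 in VAT alone. Epididymis genes were the marker list with calls in this contrast, 3 of 5 higher in KO, and without the libraries holding other tissue the log2 differences were 1.51 and 0.87. The other 8 tubulins lay between -0.71 (*Tubb3*) and 0.32 (*Tubb2a* and *Tubb6*) on the log2 scale. By group means, *Tubb2a* and *Tubb6* were higher in KO in 6 of 6 fat groups, by 1.08- to 1.46-fold and 1.02- to 1.60-fold, and *Tubb4b* in 5 of 6. *Tuba1c* and *Tubb5* were higher in 4 of 6, *Tuba4a* and *Tubb3* in 3 and *Tubb2b* in 2. In SAT, *Tubb4b* ranged from 20.0 to 43.6 in KO and 14.7 to 19.0 in WT on chow and from 34.0 to 46.9 in KO and 20.9 to 26.6 in WT on HFD, without overlap in either diet. In male HFD VAT its KO mean was below the WT mean, and its highest value, 103 RPKM, was in WT replicate 4, a library with testis genes. The other WT samples there ranged from 16.8 to 22.660 RPKM and the KO samples from 22.664 to 33.8.

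Lymphocyte genes differed between the same SAT samples. The inguinal pad contains a lymph node, and the summed level of 8 lymphocyte markers, among them *Cd79a*, *Ms4a1*, *Cd3e* and *Ltb*, none of the 8 at 0 throughout a group, was 61.3 to 202 RPKM in the 4 WT samples of male chow SAT. In KO it was 2.52, 2.91, 9.32 and 145 RPKM, and replicate 4, the high one, was the KO sample whose *Tuba1a* lay in the WT range. In male HFD SAT the sum was 2.22 to 3.24 RPKM in KO and 2.45 to 68.7 in WT, and the high WT sample, replicate 2, had the highest *Tuba1a* of the 4 WT samples (165 RPKM). In female SAT it was 107 RPKM in KO replicate 2, the sample with the lowest KO *Tuba1a* level, and at most 6.49 in the others. Over the 23 SAT libraries, which share diets, sexes and lanes, the Pearson correlation of the log2 levels of *Tuba1a* and this sum was -0.75, and with the sum of 6 adipocyte markers it was 0.89. In VAT the lymphocyte sum was 2.58 to 14.5 RPKM in all samples and the KO mean of *Tuba1a* was higher there too. Ribosomal RNA took a median of 16.4% of counts in WT and 1.63% in KO chow SAT. The part of lymph node tissue and of RNA quality in the tubulin levels was not tested.

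**Figure D4:**
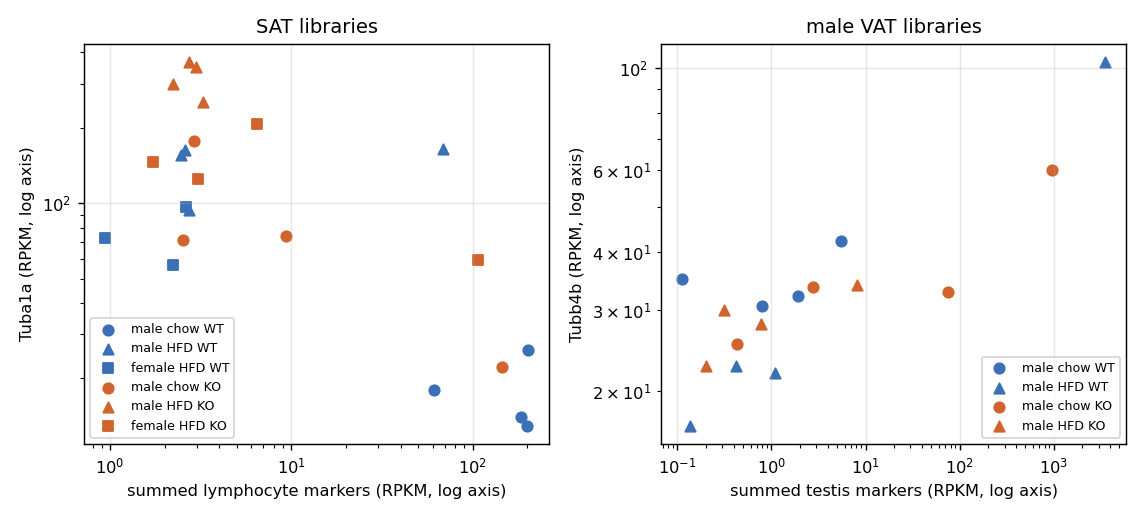
Left, *Tuba1a* against the summed level of 8 lymphocyte markers in the 23 SAT libraries. Right, *Tubb4b* against the summed level of 9 testis markers in the 16 male VAT libraries. All axes are in RPKM and logarithmic, and each point is a library. Of the 7 SAT libraries rich in lymphocyte genes, the 5 from chow have the lowest *Tuba1a* levels and the male HFD one does not, and the 2 VAT libraries rich in testis genes have the highest *Tubb4b* levels.

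Whether the difference between KO and WT varied with depot or diet was tested as interaction terms in the 32 male fat libraries. edgeR's quasi-likelihood test called 0 of the 10 tubulins for depot, where 0% of all genes were called (2322 of 18561 genes, 1 tubulin among them, had an unadjusted p below 0.05). DESeq2 called 0 of the 10 as well, beside 0.226% of all genes. The log2 difference between KO and WT in VAT minus that in SAT was -0.55 ± 0.44 (SE) for *Tuba1a* and -0.25 ± 0.28 for *Tuba1b*. *Tubb4b* had the lowest p, with -1.0 ± 0.37 (adjusted p = 0.343, edgeR), and its value ranged from -1.16 to -0.50 when 1 library at a time was left out. For diet, edgeR called 0 of the 10, where 0.765% of genes were called, and 2556 genes and 1 tubulin had an unadjusted p below 0.05. DESeq2 called 0 tubulins, beside 1.85% of all genes. The difference for *Tuba1a* on HFD minus that on chow was -0.70 ± 0.44 and for *Tuba1b* -0.31 ± 0.28, and *Tubb5*, with 0.50 ± 0.19, had the lowest p (adjusted p = 0.236, edgeR). Intervals of this width do not separate equal effects from sizeable differences.

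In liver, KO and WT were compared in 16 male libraries with diet as covariate, a contrast the choice of members did not use. edgeR called 0 of the 8 tubulins with enough counts, where 0% of 14476 genes were called (1416 genes and 1 tubulin had an unadjusted p below 0.05). DESeq2 called 0 tubulins, beside 0.629% of all genes. *Tuba1a* ranged from 0 to 1.55 (median 0.850) RPKM in KO and from 0.918 to 2.05 (median 1.08) in WT liver, and the groups overlapped. Its log2 difference was -0.36 ± 0.25 (adjusted p = 0.665, edgeR), and that of *Tuba1b* 0.02 ± 0.20. *Tuba4a*, the leading alpha tubulin of liver, differed by 0.16 ± 0.07 (adjusted p = 0.456). In HFD liver, *Tubb6* was 1.69, 1.96, 2.90 and 1.88 RPKM in KO and 1.32, 1.57, 1.19 and 1.11 in WT, without overlap, but over both diets its difference was 0.28 ± 0.22 (adjusted p = 0.691). KO replicate 3 of HFD liver, the library without a *Tuba1a* count, had 75.4% of its counts on ribosomal RNA.

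Diet was compared in males, tissue by tissue. In male SAT, 7 of the 9 tested tubulins were called by edgeR's quasi-likelihood test with genotype as covariate, 6 higher and 1 lower on HFD, where 58.0% of 17292 genes were called, 28.5% higher and 29.6% lower. The median log2 difference of the 9 was 0.62, against -0.02 for all genes. *Tuba1a* ranged from 94.0 to 366 (median 209) RPKM on HFD and from 12.9 to 176 (median 24.0) on chow, and chow KO replicate 2 was the 1 chow sample above the lowest HFD sample. Its log2 difference was 2.46 ± 0.36 (SE, adjusted p = 0.000128). *Tuba1b* rose by 1.11 ± 0.20, *Tubb6* by 1.03 ± 0.18, *Tuba1c* by 0.63 ± 0.21, *Tubb2a* by 0.62 ± 0.21 and *Tubb4b* by 0.50 ± 0.13 on the log2 scale.

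*Tuba4a* was the 1 tubulin lower in SAT on HFD, at 0.446 to 2.42 (median 0.970) RPKM against 1.55 to 21.1 (median 4.20) on chow, a log2 difference of -2.23 ± 0.54 (adjusted p = 0.00398, edgeR), opposite in direction to *Tuba1a*. *Tubb5*, which led SAT on chow, differed by 0.02 ± 0.13, and *Tubb2b* by 0.53 ± 0.26 (adjusted p = 0.103). *Tubb3* was not tested because of its low counts. Of the 8 lymphocyte markers all were called lower on HFD, and their sum was 2.22 to 68.7 RPKM on HFD against 2.52 to 202 on chow. Without the libraries rich in lymphocyte genes, which leaves no WT chow SAT sample, the log2 difference of *Tuba1a* was 1.55 (adjusted p = 0.0150, edgeR), while *Tubb4b* (0.26) and *Tubb2a* (0.46) were no longer called. That fit called 7 tubulins, as did the fit of all libraries, and 24.8% of all genes. *Tuba1c* was at 0.13 in WT alone. Markers of other cells were called higher on HFD as well, 7 of 8 of dividing cells, 4 of 5 of endothelium, 4 of 7 of macrophages and 3 of 6 of adipocytes. Preadipocyte and fibroblast markers had 4 higher and 2 lower of 7, and hepatocyte markers 5 higher and 1 lower of 6. The summed dividing-cell level was 12 to 22.5 RPKM on HFD and 4.23 to 16.5 on chow, and the part of these cells was not tested.

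In male VAT, 5 of the 10 tubulins were called and all 5 were higher on HFD, where 44.2% of 17330 genes were called and 21.0% called higher. *Tubb6*, a beta tubulin known to be induced in injured and regenerating muscle, ranged from 12.2 to 25.3 (median 16.5) RPKM on HFD and from 2.63 to 7.35 (median 3.88) on chow, with no overlap, a log2 difference of 1.93 ± 0.24 (adjusted p = 3.02e-05, edgeR). *Tubb5* did not overlap either, at 41.2 to 87.1 (median 62.6) RPKM on HFD and 25.2 to 40.1 (median 33.3) on chow, with 0.91 ± 0.16. *Tuba1c* (1.50 ± 0.28), *Tubb2a* (1.05 ± 0.21) and *Tuba1a* (1.03 ± 0.27) were higher with overlapping samples. *Tuba1b* was at 0.30 ± 0.19 (adjusted p = 0.220). Without the 4 VAT libraries that held testis or epididymis genes, 9 of the 10 were called, where 48.5% of all genes were, among them *Tubb4b* (-0.41) and *Tuba4a* (-0.63) as lower on HFD. KO replicate 1 and WT replicate 2 of chow VAT, with 9748 and 3380.3 RPKM summed over the epididymis markers, had *Tuba1c* at 6.16 and 7.60 RPKM.

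Macrophage and cell division genes moved with these tubulins. All 7 macrophage markers (*Adgre1*, *Cd68*, *Csf1r*, *Itgax*, *Mrc1*, *Lyz2* and *Trem2*) were called higher in VAT on HFD, and their summed level was 753 to 1777 RPKM on HFD and 174 to 649 on chow, with no overlap. All 8 markers of dividing cells were called higher too, with sums of 13.4 to 56.0 and 3.06 to 14.7. Hepatocyte markers had 5 higher and 1 lower of 6, and adipocyte markers 1 higher and 5 lower of 6. Over the 23 VAT libraries, which share their diets and sexes, the Pearson correlation of log2 levels with the macrophage sum was 0.98 for *Tubb6*, 0.92 for *Tubb2a*, 0.88 for *Tubb5*, 0.86 for *Tuba1c* and 0.60 for *Tuba1a*. Over the 23 SAT libraries it was 0.32 for *Tubb6* and -0.06 for *Tuba1a*. The part of macrophages and of the other cells in these levels was not tested.

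In male liver, 5 of the 8 tested tubulins were called, 4 lower and 1 higher on HFD, where 40.8% of 14476 genes were called, 20.6% higher and 20.2% lower. *Tubb2a* ranged from 6.28 to 14.5 (median 8.50) RPKM on HFD and from 19.7 to 37.7 (median 27.3) on chow, with no overlap, a log2 difference of -1.68 ± 0.15 (adjusted p = 1.32e-07, edgeR), whereas it rose in both fat depots. *Tuba4a* (-0.41 ± 0.07), *Tubb4b* (-0.35 ± 0.11) and *Tubb5* (-0.20 ± 0.08) were lower as well, with overlapping samples. *Tubb6* was higher by 0.53 ± 0.22 (adjusted p = 0.0703). *Tuba1a* was at 0.01 ± 0.25. The liver call of *Tubb6* was lost at an FDR of 5% and in 6 of the 16 fits that left out 1 library. Of marker genes, 4 of 7 of macrophages and 3 of 5 of endothelium were called lower on HFD. Ribosomal RNA took a median of 17.7% and 0.461% of counts in chow KO and WT liver and 0.0303% and 0.0269% in HFD KO and WT liver, and the part of these cells and of RNA quality was not tested.

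**Figure D5:**
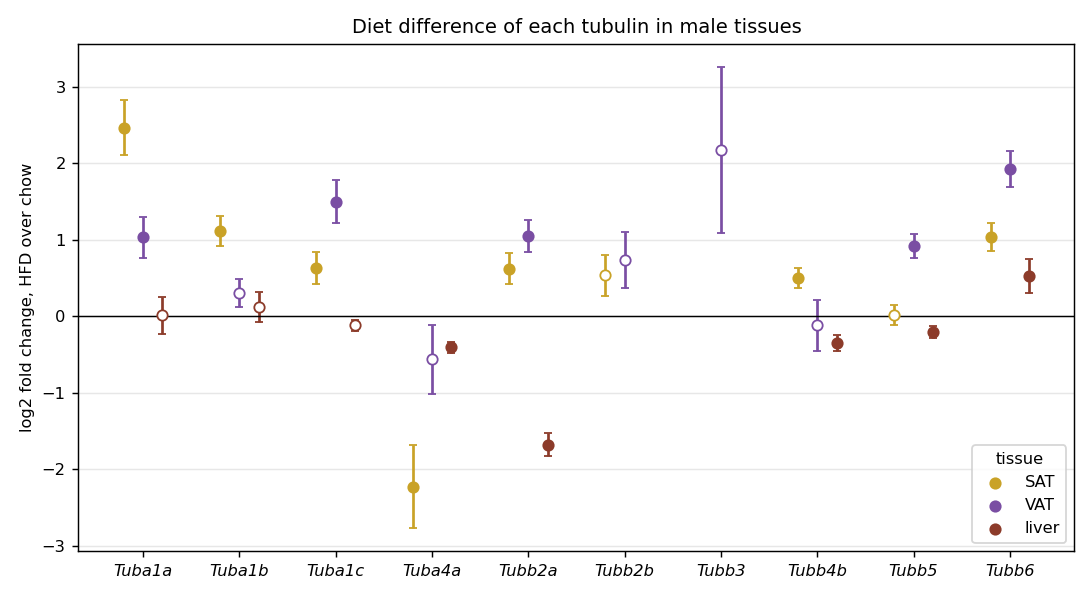
Log2 difference between HFD and chow (points, with bars of 1 SE) for each tubulin in male SAT, VAT and liver (16 libraries each); filled points were called at an FDR of 10% by edgeR's quasi-likelihood test. *Tubb6* is above 0 in all 3 tissues, *Tubb2a* is above 0 in fat and below it in liver, and *Tuba1a* is above 0 in fat and close to 0 in liver.

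The diet difference in VAT minus that in SAT, an interaction term over 32 male fat libraries, was called by edgeR for 6 of the 10 tubulins, where 36.7% of genes were called, 17.8% with a larger and 18.9% with a smaller value in VAT. It was smaller in VAT for *Tuba1a* (-1.42 ± 0.44, adjusted p = 0.0163) and *Tuba1b* (-0.79 ± 0.28), and larger in VAT for *Tubb5* (0.91 ± 0.19, adjusted p = 0.000829), *Tubb6* (0.91 ± 0.30), *Tuba1c* (0.88 ± 0.35) and *Tuba4a* (1.69 ± 0.68). Without the libraries rich in lymphocyte genes, 0 of the 10 were called, where 1.48% of all genes were, and *Tuba1a* was at -0.60 (adjusted p = 0.680, edgeR). *Tuba4a* was not called without either KO replicate 1 of chow SAT (1.04) or WT replicate 4 of HFD VAT (1.11).

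Between the depots of males, with diet and genotype as covariates, 6 of the 10 tubulins were called higher in VAT and 0 lower, where 35.1% of genes were called and 20.4% called higher. *Tuba1c* (1.13 ± 0.19), *Tubb2a* (0.99 ± 0.16), *Tubb2b* (1.30 ± 0.23), *Tubb6* (0.79 ± 0.18), *Tubb3* (1.57 ± 0.63) and *Tubb5* (0.33 ± 0.13) passed the test, the last with -0.14 on chow alone. *Tuba1a*, at 28.7 to 223 (median 81.5) RPKM in VAT and 12.9 to 366 (median 125) in SAT, and *Tuba1b* differed by -0.08 ± 0.26 and 0.05 ± 0.15. In females on HFD, where 27.4% of genes were called, 2 of 9 tested tubulins were called: *Tubb2a* was higher in VAT by 0.74 ± 0.15 (adjusted p = 0.00343, edgeR), and *Tuba4a* was lower, at 0.941 to 1.35 (median 1.10) RPKM in VAT and 1.88 to 7.0 (median 2.48) in SAT without overlap (-1.46 ± 0.25). The SAT sample with the highest *Tuba4a*, WT replicate 2 with 7.0 RPKM, had a skeletal muscle sum of 1497 RPKM. Between the female depots, 7 of 7 mammary and skin epithelium markers were called lower in VAT and 6 of 7 macrophage markers higher. The mammary and skin epithelium sums were 1.31 to 7.80 RPKM in VAT and 64.5 to 156 in SAT. Between the male depots, 5 of 7 macrophage, 5 of 5 mesothelium and 5 of 5 epididymis markers were called higher in VAT and 8 of 8 lymphocyte markers lower, with macrophage sums of 174 to 1777 RPKM in VAT and 178 to 540.0 in SAT. The part of all these cells in the tubulin levels was not tested in either sex.

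On HFD, 8 of the 10 tubulins were called lower in females than in males over both depots and 0 higher, where 37.5% of genes were called, 18.4% lower and 19.1% higher. Females and males were on different lanes, so that sex and lane cannot be told apart. *Tuba1c* (-1.34 ± 0.18) and *Tubb6* (-1.22 ± 0.16) had the smallest p. *Tuba1c*, *Tubb3*, *Tubb5* and *Tubb6* did not overlap between the sexes in VAT, with *Tubb6* at 3.66 to 6.49 (median 5.85) RPKM in 7 females and 12.2 to 25.3 (median 16.5) in 8 males, and none of the 10 was without overlap in SAT. The share of all genes without overlap was not counted, so nothing about the tubulins is read from this. In VAT alone 6 tubulins were called between the sexes, beside 39.5% of all genes, and in SAT alone 8, beside 26.6%. The macrophage sum in VAT was 256 to 436 RPKM in females and 753 to 1777 in males. All 8 dividing-cell markers were called lower in females, and their VAT sums were 4.70 to 9.51 RPKM in females and 13.4 to 56.0 in males. Of 7 mammary and skin epithelium markers, 6 were called higher in females and 0 lower. Their SAT sums were 64.5 to 156 RPKM in females and 0.0558 to 4.23 in males. The part of these cells was not tested. The log2 difference of *Tuba1a* was -0.66 ± 0.17 (adjusted p = 0.00447, edgeR), at 56.9 to 207 (median 96.2) RPKM in female SAT and 94.0 to 366 (median 209) in male SAT. *Tuba1b* had a log2 difference of -0.28 ± 0.12 over both depots and of 0.01 in VAT alone.

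*Tubb3*, *Tubb4b* and *Tuba4a* were high in 2 male VAT libraries that held testis genes. WT replicate 4 of HFD VAT had a summed level of 3531 RPKM for 9 testis markers, against at most 1.08 in the other 3 WT samples. In it *Tubb4b* was 103 RPKM, where the other 3 WT samples had 16.8, 21.9 and 22.7. *Tubb3* was 3.55 RPKM there, against 0.159, 0.222 and 0.420. KO replicate 4 of chow VAT, with a testis sum of 966 RPKM, had the highest *Tubb4b* (60.1) and *Tubb3* (0.768) of its group too. The call of *Tubb3* between depots was lost without either library, at 0.79 and 0.96. Without WT replicate 4 of HFD VAT, *Tubb4b* was lower on HFD in VAT, with a log2 difference of -0.61 (adjusted p = 0.0101, edgeR), where all libraries gave -0.12 ± 0.33. The testis list was drawn up after these libraries had been seen.

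The proteins that fold, modify and bind tubulin were read from lists fixed by function, beside a list of 10 other tubulins: 21 folding factors (the CCT chaperonin, prefoldin and the tubulin cofactors), 15 modifying enzymes and 27 microtubule-binding or severing proteins. Between KO and WT male fat, 1 of the 21 folding factors was called, *Tbcb*, a cofactor that receives alpha tubulin after folding, with 0.34 ± 0.08. The other 3 lists had 0 called of 8 other tubulins, 15 modifying and 25 binding genes tested, beside 3.97% of all genes. In male SAT on HFD, the folding list had 6 higher and 1 lower of 21 called, the modification list 6 higher and 3 lower of 15 and the binding list 13 higher and 3 lower of 25, beside 58.0% of all genes. *Tbcb* (0.83 ± 0.10) and *Tbcd* (0.74 ± 0.10), which act on alpha and beta tubulin in turn, both rose. *Vash1*, which removes the terminal tyrosine of alpha tubulin, rose by 1.41 ± 0.20 and *Map1a*, a microtubule-associated protein, by 2.31 ± 0.29, whereas *Ttll4*, a glutamylating enzyme, was lower (-0.63 ± 0.08).

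In male VAT on HFD, the folding list had 5 higher and 1 lower of 21 called, the modification list 3 higher and 0 lower of 15 and the binding list 9 higher and 4 lower of 25, beside 44.2% of all genes called, 21.0% higher and 23.2% lower. The spindle protein *Tpx2* (2.33 ± 0.30) and the dimer-binding *Stmn1* (1.80 ± 0.32) were higher and the severing protein *Fign* lower (-1.66 ± 0.27), beside the higher sum of dividing-cell markers. *Tbcb* (0.59 ± 0.12) and *Tbcd* (0.33 ± 0.07) were higher here as well. In liver the folding list had 2 higher and 11 lower of 21 called, beside 40.8% of all genes called and 20.2% lower, with a median of -0.20 against 0.00 for all genes, and *Tbce* (-0.51 ± 0.07) and the chaperonin subunits *Cct5* (-0.43 ± 0.07), *Cct8* (-0.38 ± 0.07) and *Cct3* (-0.40 ± 0.07) were lower, beside the lower *Tubb2a*, *Tuba4a*, *Tubb4b* and *Tubb5*. Of the other tubulins, 1 higher and 1 lower of 5 were called in HFD liver, *Tubd1* (0.58 ± 0.19) and *Tuba8* (-2.12 ± 0.24). Between KO and WT liver 0 of the genes of the 4 lists were called by edgeR, where 0% of all genes were.

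Between liver and male fat, the folding list had 14 higher and 4 lower of 21 called and the binding list 6 higher and 17 lower of 25, where 85.3% of all genes were called. *Pfdn2* (2.03 ± 0.07) and *Cct6a* (1.07 ± 0.06) were higher in liver, and *Map6* (-7.80 ± 0.30), *Map1b* (-4.12 ± 0.16) and *Stmn2* (-7.52 ± 0.37), known as stabilisers and regulators of neuronal microtubules, were lower. Among the modifying enzymes, *Atat1*, the acetyltransferase of alpha tubulin, was higher (1.13 ± 0.09), and *Ttl*, which restores the terminal tyrosine, was lower in liver (-0.85 ± 0.07), where most of the alpha tubulin RPKM came from the gene without that codon.

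Among themselves the 10 tubulins fell into different patterns over the 46 fat libraries, which share depot, diet, sex and lane. Log2 CPM of *Tuba1a* and *Tuba1b* correlated with a Pearson r of 0.96 and a Spearman rho of 0.95, and without the 2 libraries farthest from the median r was 0.94. It was 0.97 within SAT and 0.93 within VAT, and the shared windows of the 2 genes bear on it. On log2 RPKM, *Tuba1c*, *Tubb2a*, *Tubb5* and *Tubb6* rose and fell together, with r of 0.88 between *Tubb2a* and *Tubb6*, 0.85 between *Tuba1c* and *Tubb5* and 0.85 between *Tuba1c* and *Tubb6*. *Tuba1a* had an r of 0.15 with *Tubb5* and of -0.50 with *Tuba4a*.

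Among the 14959 genes compared, those outside the 10 that were most like *Tuba1a* over the 46 fat libraries, by Pearson r of log2 CPM, were *Fis1* (0.92), *1700047G03Rik* (0.92), *Cd59a* (0.92), *Sc5d* (0.91) and *Lgals1* (0.91). Those most like *Tuba1b* were *Fis1* (0.87), *Twf1* (0.87), *Parp3* (0.86), *Cdr2* (0.86) and *Mrpl27* (0.86). Over the 16 group means of fat and liver they were *Slc8a1* (0.99), *Vamp3* (0.99), *Dennd5a* (0.99), *Poln* (0.99) and *Reep5* (0.99) for *Tuba1a*, and *Cdr2* (0.99), *Tmem252* (0.99), *Gpx7* (0.99), *Fam69b* (0.99) and *Pgf* (0.99) for *Tuba1b*. *Fis1*, a factor of mitochondrial and peroxisomal fission, was the 1 gene in both lists of fat libraries.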

How the data were processed

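RNA sequencing was carried out on SAT, VAT and liver of WT and *Fam13a* KO mice, with 62 libraries in 16 groups. Per the paper's methods, libraries were made with a stranded kit, and the column of the strand that was kept is not given in the sources used here. The deposited values are raw gene counts, which the authors made with STAR (2.5.3a in the submitters' processing notes, mm10), not normalized and not pooled. RNA quality, extraction delay and hidden-factor covariates of the authors' model were left out here. Symbols and merged exon lengths came from GENCODE M21 (GRCm38), by Ensembl identifier without version, and 48349 of 48795 genes (99.1%) matched.

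Groups came from the labels, which number no replicates, so that replicate numbers are in accession order. No 2 of the 62 libraries held the same counts (0 of 1891 pairs). Nothing states that the samples of a group came from separate animals beyond their labels, and p-values measure the spread between these samples. Fits over both depots treat their samples as independent, since the labels do not tie depots to mice. Fits were made with edgeR 4.0.16 and limma 3.58.1 under R 4.3.3: TMM scaling, filterByExpr on groups, quasi-likelihood fits over all genes, Benjamini-Hochberg adjustment and an FDR of 10%. Each SE was obtained as the absolute log2 difference over the root of its F statistic. RPKM used TMM library sizes over all 62 libraries, and the factor had a median of 0.617 in liver and 1.26 in SAT. Likeness used log2 CPM with a prior count of 2, among genes with a mean CPM of at least 1. Named partners were at most the 4 genes with the smallest p of each list among those called. The members and lists were chosen with earlier results of these data known, and the testis list after the libraries had been seen. Alternatives were DESeq2 1.42.0, other scaling, filters, FDR of 5%, subsets, and each library left out. The code was run on counts simulated from its own fitted model with known changes put in. That simulation drew independent samples and added no other tissue, lane or ribosomal RNA difference, so it checks the code and not these data.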

Additional observations from a re-analysis of the deposited data

Results flagged for a closer look

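Samples that stood apart from the others of their group of 4, by Dixon's ratio of the gap to the range, were found in 7 of 124 pairs of gene and group, where chance gives about 1 in 20. In WT replicate 4 of HFD VAT, the library with the highest testis sum, *Tubb4b* (103 RPKM against 16.8 to 22.7 in the other 3 samples), *Tubb3* (3.55 against 0.159 to 0.420) and *Tuba4a* (5.79 against 0.522 to 1.16) were all high. KO replicate 1 of chow SAT, the library with the highest skeletal muscle sum, had *Tuba4a* at 21.1 RPKM against 1.55 to 4.74. *Tuba4a* was low in WT replicate 4 of chow SAT, at 1.98 against 4.20 to 4.24. *Tuba1a* was low in WT replicate 1 of HFD SAT, at 94.0 RPKM against 156 to 165, a library with a lymphocyte sum of 2.72 RPKM. *Tubb2b* was high in KO replicate 4 of female SAT, at 1.01 RPKM against 0.558 to 0.629.

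The difference between HFD and chow itself differed between the depots of males by an interaction term, with VAT minus SAT at log2 -1.42 for *Tuba1a*, -0.79 for *Tuba1b*, 0.88 for *Tuba1c*, 1.69 for *Tuba4a*, 0.91 for *Tubb5* and 0.91 for *Tubb6*.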

How the results depend on the processing

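Under DESeq2, other scalings, filters, an FDR of 5% and subsets of the libraries, single tubulins kept direction and side of the threshold in 1044 cases, lost the call in 41, gained it in 23 and reversed in 7, KO against WT in fat left aside. The reversed values were *Tuba1b* between sexes in VAT alone (0.00602), *Tubb5* between depots on chow alone (-0.14), and, between liver and fat, *Tuba1c* (-0.13), *Tubb2a* (-0.61) and *Tubb4b* (-1.07) without composition scaling and *Tubb2a* in HFD libraries (-0.98) and against VAT (-0.18). The cause was not tested.

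The number of tubulins called in the diet difference between depots was 0 without the libraries rich in lymphocyte genes (6 in all libraries), where 1.48% of all genes were called. Between KO and WT male fat, 2 were past the threshold in all libraries, 0 without those libraries, 0 on HFD alone, 0 in VAT alone and 4 in SAT alone, where 736, 2, 1, 0 and 2487 of all genes were, in this order. The list was chosen on this contrast, so that nothing is read from these counts. In VAT on HFD the number of tubulins called was 9 without the libraries holding other tissue (5 in all), where 48.5% of all genes were called (44.2% in all). In WT libraries alone it was 4 between sexes (8 in all), where 16.5% of all genes were called (37.5% in all). For diet in WT liver it was 2 (5 in all), beside 30.6% of all genes (40.8% in all). Between WT female depots it was 1 (2 in all), beside 8.96% of all genes (27.4% in all). For diet in liver it was 3 at an FDR of 5%, beside 33.3% of all genes. The subsets hold fewer samples.

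Leaving out 1 library at a time, the number called ranged from 7 to 8 for diet in SAT, 5 to 8 in VAT and 3 to 5 in liver, 5 to 7 for diet by depot, 6 to 8 between sexes, 8 to 9 between liver and fat, 5 to 6 between male and 2 to 3 between female depots, 2 to 3 between KO and WT fat, 0 to 0 for KO by depot, 0 to 1 for KO by diet and 0 to 0 between KO and WT liver. Shares of all genes are not given for these fits, and nothing is read from the counts between KO and WT fat, the contrast that chose the list. The number called reached 8 in VAT without WT replicate 4 of HFD VAT, 3 in liver without KO replicate 2 of HFD liver, and 1 for KO by diet without WT replicate 3 of HFD VAT. Without WT replicate 4 of HFD VAT, *Tuba4a* on HFD in VAT was at -1.20 and *Tubb4b* between sexes at -0.18, and without KO replicate 4 of chow VAT *Tubb3* on HFD in VAT was at 3.70.

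The sets without libraries rich in other tissue, lymphocyte genes or ribosomal RNA, liver against 1 depot and the fits without composition scaling were added after seeing the data. No paired analysis was possible because the labels number no replicates. *Tubb3* and *Tubb2b* had too few counts in liver for a test there.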
